A study of Mus musculus with 2 samples.

Results

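The genes of the heat shock proteins and their partner chaperones were examined in the epidermis of mice that lack the calcium-sensing receptor (CaSR, gene Casr) in keratinocytes. Members were taken by name, as every gene whose array symbol or current symbol begins with Hspa, Hspb, Hspd, Hspe, Hsph or Hsp90, with Dnaja, Dnajb or Dnajc, with Cct and a digit, or with Bag and a digit. The rule found 81 genes, read by 111 probes, among 18036 genes on the array. One of them, Tmem132a, entered through its older symbol Hspa5bp1, which names it as a binding partner of the chaperone Hspa5. Of the 81 genes, 51 gave a signal above background in at least 1 sample, 47 of them in both, and 30 were above background in neither.

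The control sample was epidermis of CaSR fl/fl littermates, and the knockout sample was epidermis of mice that carried the same CaSR fl/fl alleles together with Cre under the keratin 14 (K14) promoter, which acts in basal keratinocytes. All mice were of strain C57BL6 and 5 days old (P5), and the epidermis was lifted from back skin with dispase. Each sample was a single Illumina bead array of RNA combined from 3 mice, so 1 control sample stood against 1 knockout sample. With no replicates there is no replicate error and no significance test, and the differences between the pools are descriptions of these samples. Langerhans cells, T cells and melanocytes of the epidermis do not use the K14 promoter, and 6 of 6, 4 of 4 and 4 of 5 of their markers were detected.

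Chaperones bind unfolded or partly folded proteins and help them fold, assemble or be degraded. Small heat shock proteins hold unfolding proteins without using ATP, Hsp70 proteins bind and release them in an ATP cycle that Hsp40 (DnaJ) proteins start and BAG proteins help to end, Hsp90 proteins finish the folding of kinases and receptors, and chaperonins fold proteins inside a closed chamber. Many of these genes are induced by heat shock factors, and those of the endoplasmic reticulum (ER) by the unfolded protein response. In skin, Hspb1 is known as a small heat shock protein of the differentiating epidermal layers.

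Most detected chaperone genes differed by less than 1.2-fold between the pools, which does not show them to be level. Ratios are knockout over control on the normalised signal of each gene's brightest probe, and a difference of at least 1.2-fold was taken as a mark, since different probes of one gene gave log2 ratios with an SD of 0.11 across 1840 genes and 2 such SDs correspond to 1.17-fold. That SD covers no differences between pools or hybridisations. Of the 51 detected members, 4 had a signal at least 1.2-fold higher in the knockout (Hspe1, Hsp90b1, Hspa8 and Cct4), where 2.91% of all 8564 detected genes were. A signal at least 1.2-fold lower was found for 1 member (Hspb1), where 2.95% of all detected genes were. Over all genes 49.6% of those past 1.2-fold were higher, and 76.4% with median scaling of the arrays, while the members stood at 4 and 1 under both. Of the other 46 members, 42 were detected in both samples and lay within 1.2-fold, and the ratios of 4 detected in 1 sample are lower bounds. On the normalised signals as deposited, no measured ratio or bound reached 1.5-fold in either direction, a mark that 0.187% of all detected genes passed upwards and 0.234% downwards. The median log2 ratio of the 51 members was 0.04, beside 0.01 for all detected genes, and 30 members were above 0 (58.8%), beside 52.1% of all detected genes. The SD of the log2 ratios was 0.15 over the members detected in both samples and 0.15 over all genes detected in both.

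**Figure D1:**
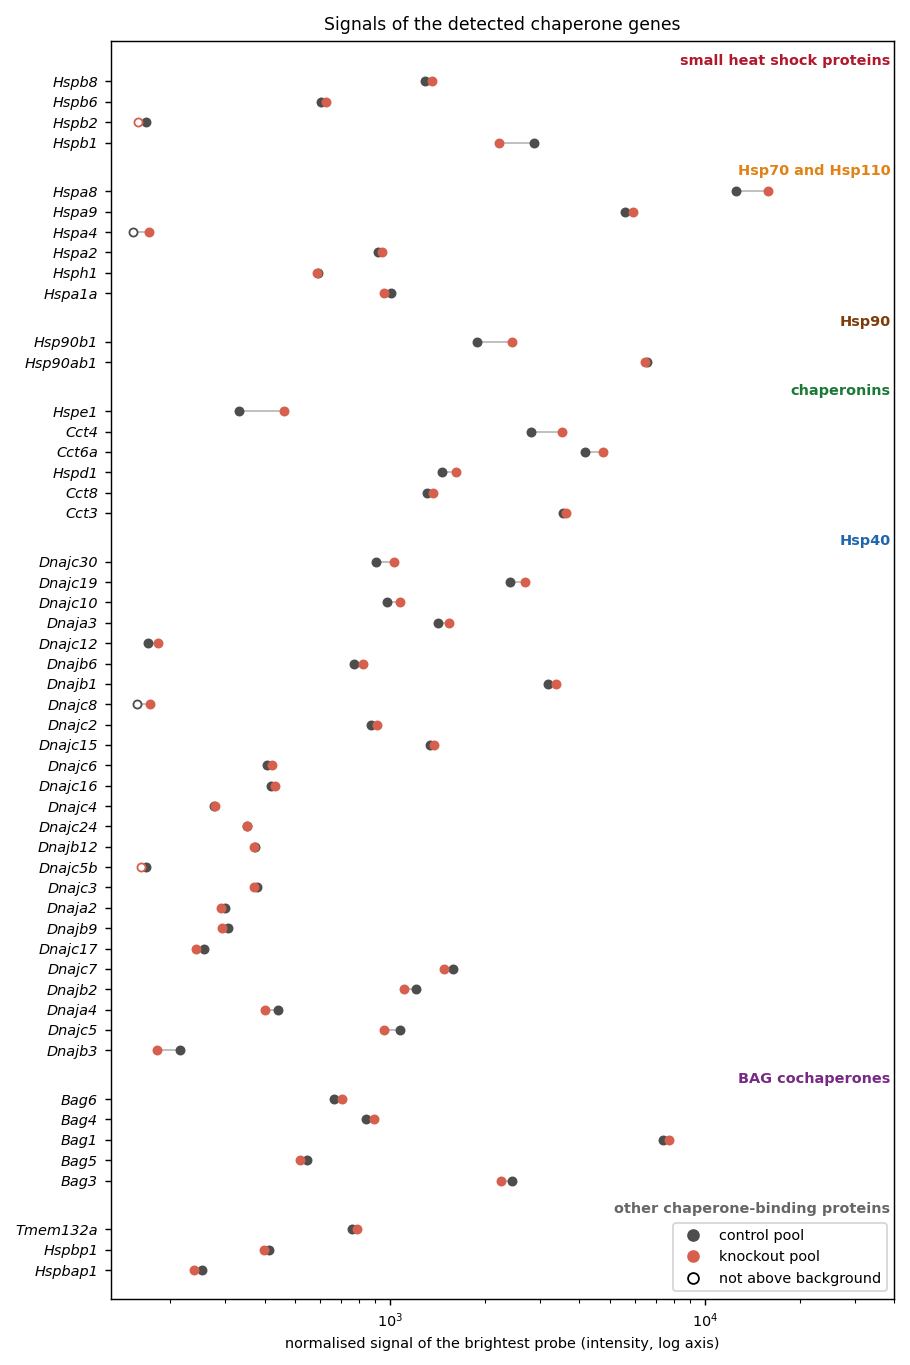
Normalised signal of the brightest probe (log axis) for the 51 detected chaperone genes in the control pool (dark) and the knockout pool (red), 1 array each, with open points for signals not above background. The pairs of points lie close together for most genes, and the widest gaps are those of Hspe1, Hsp90b1 and Hspb1.

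Casr itself could not serve as a check of the genotype. Its 1 probe, listed as Gprc2a, gave 123 in the control and 148 in the knockout, not above background in either, and its place relative to the deletion is not given in these sources. Of the probes on the array, 10888 (control) and 10802 (knockout) were detected. Of 10 keratinocyte markers on the array 9 were detected, with Krt5 at 19907 in the control and 16377 in the knockout and Krt14 at 17418 and 15114. Dsg1a, from the same list, was above background in neither sample. Markers of some other cells differed between the pools by amounts like those of the chaperone families below. Those of melanocytes, fibroblasts and endothelial cells had median log2 ratios near 0 (-0.004, -0.02 and 0.02, over 4, 4 and 2 detected genes). The 3 sebocyte markers had a median of -0.21, with 1 above 0 (Mc5r at 0.43) and Awat2 at -0.50. Those of skeletal muscle had a median of 0.07. All 6 Langerhans and myeloid markers were above a log2 ratio of 0 (median 0.15, summed signal 11857 in the control and 12570 in the knockout). All 4 T cell markers were below 0 (median -0.15, summed signal 2795 and 2551), and the globin gene Hba-a1 was at -0.89. In such bulk samples fewer cells of a type and less RNA per cell cannot be told apart, and the part of these cells in the chaperone ratios was not tested.

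Among the small heat shock proteins, Hspb1 was the member past 1.2-fold. Its signal was 2860 in the control and 2215 in the knockout, which is 1.29-fold lower in the knockout (log2 ratio -0.37). Hspb1 encodes Hsp25 of the mouse, the counterpart of human HSP27, which binds unfolding proteins and actin. The other members detected in both samples lay within 1.2-fold. Hspb8, which works with Bag3 in the removal of misfolded proteins, gave 1296 in the control and 1360 in the knockout (log2 ratio 0.07), and Hspb6 gave 604 and 625 (log2 ratio 0.05). Hspb2 was detected in the control (168) and not above background in the knockout (158). Hspb3 and Hspb7, known mainly from muscle, were above background in neither.

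Hspb1 was lower in the same pool in which some markers of the upper epidermis and of the hair follicle were lower. The involucrin gene Ivl, a precursor of the cornified envelope, gave 3250 in the control and 2319 in the knockout (log2 ratio -0.49), and Flg2 gave 8049 and 7275 (log2 ratio -0.15), while Lor was at -0.03 and the spinous keratin gene Krt10 at 0.22. Over the whole keratinocyte list 4 of 9 detected markers were above 0 and their summed signal was 92127 in the control and 88063 in the knockout. Of 4 detected hair follicle markers 3 were below 0 (Krt71 at -0.40, Krt31 at -0.32 and Krt27 at -0.21) and Hoxc13 was at 0.35. Their summed signal was 20622 in the control and 16778 in the knockout, mostly from the probes of Krt71 and Krt27. The part of these cells in the Hspb1 difference was not tested.

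The promoter of Hspb1 is shown because the gene is a classical target of heat shock factors. In the 250 bases before its start site in RefSeq (GRCm38.p6, chr5:135887669-135887918, plus strand) capitals mark GAANNTTC, the core of a heat shock element made of 2 inverted units, searched together with TTCNNGAA (each reads the same on both strands).
Hspb1 promoter: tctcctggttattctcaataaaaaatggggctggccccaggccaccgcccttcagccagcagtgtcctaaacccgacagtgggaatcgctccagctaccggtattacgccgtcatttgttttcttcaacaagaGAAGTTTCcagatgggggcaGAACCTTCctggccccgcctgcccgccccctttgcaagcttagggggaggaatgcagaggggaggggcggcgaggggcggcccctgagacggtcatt
It holds 2 matches, the first 117 to 110 and the second 97 to 90 bases before the start. At least 1 match of either form stood in 12.8% of all 32851 promoter windows of that length. It stood in 18 of 85 windows of member genes (21.2%), which belonged to 16 of the 65 members with a promoter window. Hspd1 and Hspe1, which share a promoter, are counted separately there. A match is a run of letters and no measure of binding.

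Among members with such a match the ratios pointed both ways. Hspb1 was at a log2 ratio of -0.37, Dnaja4 at -0.14, Hspa1a at -0.07, Hsph1 at -0.01, Hspb6 at 0.05, Dnajb6 at 0.10, Dnajc10 at 0.14, Hspd1 at 0.15 and Hspe1 at 0.47. The other 7 (Cct2, Cct5, Cct8l1, Dnaja1, Dnajb4, Dnajc27 and Hspb3) were not detected. Hsf1, the main heat shock factor, had a signal of 1083 in the control and 1190 in the knockout (log2 ratio 0.14).

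Of the 13 Hsp70 and Hsp110 genes 6 were detected. Hspa8 encodes Hsc70, the constitutive Hsp70 of the cytosol, and its probes did not agree. The brighter probe gave 12575 in the control and 15912 in the knockout, 1.27-fold higher (log2 ratio 0.34). The other gave 4127 and 3905 (log2 ratio -0.08), so the probes were 0.42 apart on the log2 scale, the only member whose probes differed in sign by more than 2 between-probe SDs. With the mean over both probes the log2 ratio was 0.13, and Hspa8 was then within 1.2-fold. When every detected probe had to be at least 1.2-fold apart, a count chosen after the values were seen, 3 members were higher and 1 was lower, where 2.22% of all genes were higher and 2.41% were lower. Hspe1, Hsp90b1, Cct4 and Hspb1 have 1 probe each on the array. This count could therefore change through Hspa8 alone and shows no agreement between probes.

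Within this family the inducible Hspa1a and Hsph1 lay within 1.2-fold. Hspa1a, a stress-inducible Hsp70, gave 1007 in the control and 957 in the knockout (log2 ratio -0.07). Its sequence is nearly identical to that of its neighbour Hspa1b, so its probe may read both. Hsph1, an Hsp110 that exchanges the nucleotide of Hsp70, gave 592 and 589 (log2 ratio -0.01). Hspa9 (mortalin), the Hsp70 of mitochondria, was slightly higher on both probes, with 5597 in the control and 5905 in the knockout on the brighter one (log2 ratio 0.08) and 1931 and 2212 on the other (log2 ratio 0.20). Hspa2 was at 915 and 942 (log2 ratio 0.04). Hspa4, an Hsp110, was detected in the knockout (172) and not in the control (153), and was at least 1.04-fold higher. Hspa12a, Hspa12b, Hspa13, Hspa14, Hspa1l, Hspa4l and Hspa5 were above background in neither sample.

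Of the Hsp90 genes, the ER member was past 1.2-fold and the detected cytosolic one was not. Hsp90b1 encodes Grp94, which folds integrins and Toll-like receptors in the ER. Its signal was 1885 in the control and 2441 in the knockout, 1.29-fold higher (log2 ratio 0.37). Hsp90ab1, the constitutive cytosolic Hsp90, gave 6565 and 6442 on its brightest probe (log2 ratio -0.03), with log2 ratios of 0.08 and 0.18 on the others. Hsp90aa1 was above background in neither sample on either of its probes.

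The Hsp90b1 promoter is shown for the ER stress element, the site through which the unfolded protein response is known to act on ER chaperone genes. In the 250 bases before its start (RefSeq, GRCm38.p6, chr10:86705445-86705694, minus strand) capitals mark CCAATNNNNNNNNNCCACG and its reverse complement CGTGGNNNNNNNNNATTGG.
Hsp90b1 promoter: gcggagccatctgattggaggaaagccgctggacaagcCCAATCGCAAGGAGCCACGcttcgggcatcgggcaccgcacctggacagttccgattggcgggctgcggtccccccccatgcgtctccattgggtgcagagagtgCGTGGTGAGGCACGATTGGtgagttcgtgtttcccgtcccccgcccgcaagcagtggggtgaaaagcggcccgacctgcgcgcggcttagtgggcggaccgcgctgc
One match lies 212 to 194 and the other 107 to 89 bases before the start. The element stood in 37 of the 32851 promoter windows (0.113%), and 3 of them were windows of member genes, those of Hsp90b1, Hspa5 and Dnajc3.

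Of the carriers of the element, Hsp90b1 was the one past 1.2-fold. Dnajc3, an ER Hsp40 that also inhibits the kinase of the unfolded protein response, gave 378 in the control and 370 in the knockout (log2 ratio -0.03). Hspa5 (BiP), the Hsp70 of the ER, gave 139 and 147, not above background in either sample. The remaining detected ER members were Dnajc10, Dnajb12 and Dnajb9. Dnajc10, a disulphide reductase, was at a log2 ratio of 0.14 (982 and 1080). Dnajb12 was at -0.01 and Dnajb9, an unfolded protein response target, at -0.06. Hspa13 and Dnajc1, also of the ER, were above background in neither sample. The 5 detected ER members had a median log2 ratio of -0.01. Beyond the members, 13 of 15 genes of the unfolded protein response on the array were detected, with 5 above 0, a median of -0.02, 1 at least 1.2-fold higher and 0 lower. Asns, the asparagine synthetase gene, was the higher one (1082 and 1319, log2 ratio 0.29), while Xbp1 was at 0.01, Herpud1 at 0.10, Ddit3 at -0.20 and Trib3 at -0.24.

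Of the families taken by the naming rule, the chaperonins were the one in which every detected member had a higher signal in the knockout. All 6 were above 0, beside 52.1% of all detected genes, and their median log2 ratio was 0.17. Tcp1, a chaperonin subunit gene that the rule leaves out, was slightly below 0 (log2 ratio -0.03). Hspe1 and Hspd1 encode Hsp10 and Hsp60, the lid and the barrel of the mitochondrial chaperonin. Hspe1 gave 332 in the control and 460 in the knockout, 1.39-fold higher (log2 ratio 0.47), the largest ratio among the 51 members. Hspd1 gave 1460 and 1625 on its brighter probe (log2 ratio 0.15) and 685 and 739 on the other (log2 ratio 0.11). Both partners were thus higher in the knockout, Hspd1 by less than 1.2-fold. RefSeq names 7 pseudogenes after Hspe1 and 5 after Hspd1, and whether the probes also bind their transcripts was not tested.

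Hspd1 and Hspe1 lie head to head and share a promoter, which is shown as the stretch between their start sites. In RefSeq (GRCm38.p6, chr1:55087933-55088147, strand of Hspe1) it is 215 bases long, Hspd1 runs leftwards from its left end and Hspe1 rightwards from its right end, and capitals mark the heat shock element.
Hspd1 to Hspe1: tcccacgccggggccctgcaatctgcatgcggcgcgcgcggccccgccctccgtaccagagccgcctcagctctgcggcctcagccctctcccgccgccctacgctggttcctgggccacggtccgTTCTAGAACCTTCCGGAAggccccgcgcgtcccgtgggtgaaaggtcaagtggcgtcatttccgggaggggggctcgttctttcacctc
The capitals are 18 bases, 89 to 72 before the start of Hspe1, in which TTCNNGAANNTTC and GAANNTTCNNGAA overlap. RefSeq also holds a second Hspd1 start, 95 bases beyond the start of Hspe1. A run of 3 inverted units in either form stood in 153 of the 32851 windows (0.466%). The members that had one were Hspd1 and Hspe1, which share the stretch above, and Dnajb6.

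TRiC, the chaperonin of the cytosol that folds actin and tubulin, was read through 4 detected subunits. Cct4 gave 2808 in the control and 3515 in the knockout, 1.25-fold higher (log2 ratio 0.32). Cct6a gave 4160 and 4737 (log2 ratio 0.19). Cct8 gave 1312 and 1368 (log2 ratio 0.06). Cct3 gave 3536 and 3619 on its brighter probe (log2 ratio 0.03) and 1062 and 1231 on the other (log2 ratio 0.21). Ratios of subunits of one complex thus ran from 0.03 to 0.32 by the brightest probes. Tcp1, the alpha subunit that the naming rule leaves out, gave 2115 and 2071 (log2 ratio -0.03). Cct2, Cct5, Cct7, Cct6b and Cct8l1 were above background in neither sample.

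**Figure D2:**
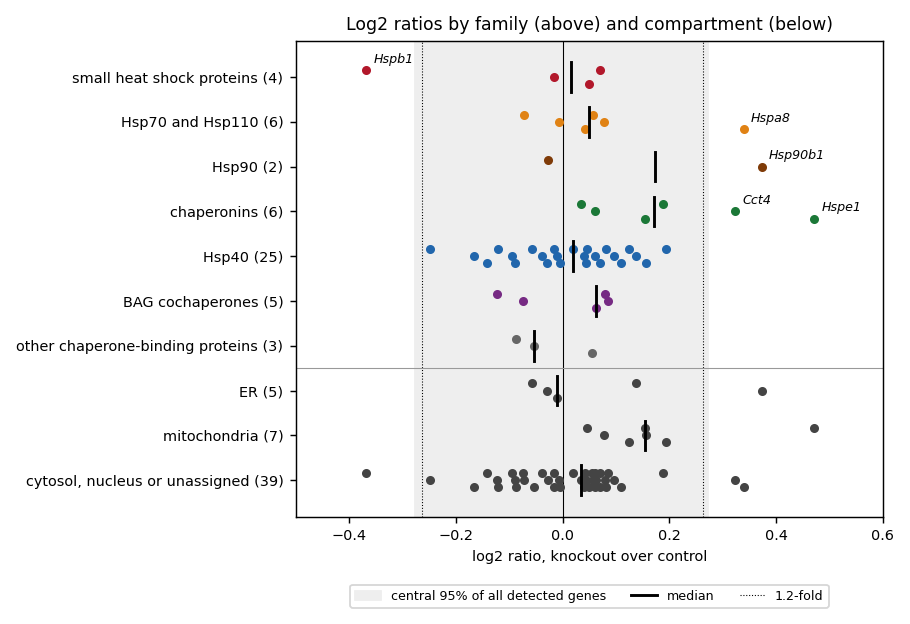
Log2 ratio of each detected member (points, 1 array per genotype) by family in the upper rows and by compartment in the lower rows, with the number of genes in brackets, the median as a black bar, the central 95% of all detected genes in grey (-0.28 to 0.27) and 1.2-fold as dotted lines. All 6 chaperonins and all 7 mitochondrial members lie right of 0, with Hspd1 and Hspe1 in both groups. The 25 Hsp40 genes lie on both sides.

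The Hsp40 genes, the largest family, showed no ratio or bound of 1.2-fold. Of 39 genes 25 were detected, 13 above and 12 below 0, with a median log2 ratio of 0.02. Nearest to the mark was Dnajb3, with 216 in the control and 182 in the knockout, 1.19-fold lower (log2 ratio -0.25). Dnajb1, the stress-inducible partner of Hsp70, gave 3182 and 3366 (log2 ratio 0.08). Dnajc7, which binds both Hsp70 and Hsp90, gave 1592 and 1490 (log2 ratio -0.10), and Dnajc5, a cysteine string protein of vesicles, gave 1074 and 956 (log2 ratio -0.17). Dnajb2 and Dnaja4 were at -0.12 and -0.14, and Dnajb6, a suppressor of protein aggregation, at 0.10 and 0.02 on its probes.

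By class, 1 of 3 detected Dnaja genes, 2 of 6 Dnajb genes and 10 of 16 Dnajc genes were above 0, with median log2 ratios of -0.04, -0.03 and 0.04. Dnajc5b was detected in the control (168) and not in the knockout (162), and Dnajc8 in the knockout (173) and not in the control (157), so each ratio is a bound, at least 1.01-fold lower and at least 1.05-fold higher. The further detected genes, Dnaja2, Dnajc2, Dnajc4, Dnajc6, Dnajc12, Dnajc16, Dnajc17 and Dnajc24, lay between -0.09 and 0.11. Above background in neither sample were Dnaja1, Dnajb4, Dnajb5, Dnajb7, Dnajb8, Dnajb13, Dnajc1, Dnajc5g, Dnajc9, Dnajc11, Dnajc14, Dnajc18, Dnajc27 and Dnajc28.

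Of the Hsp40 genes, the mitochondrial Dnajc30 and Dnajc19 had the highest ratios, within 1.2-fold, while Dnajc15 lay below several outside mitochondria. Dnajc30 gave 902 in the control and 1031 in the knockout (log2 ratio 0.19), Dnajc19, which takes part in protein import, gave 2411 and 2685 (log2 ratio 0.16, with -0.04 on a dim second probe), Dnaja3 gave 1418 and 1544 (log2 ratio 0.12) and Dnajc15 gave 1341 and 1383 (log2 ratio 0.05). Together with Hspe1, Hspd1 and Hspa9, all 7 detected mitochondrial members were above 0 on their brightest probes, beside 52.1% of all detected genes. Their median log2 ratio was 0.15. Of the 7, 1 (Hspe1) was at least 1.2-fold higher, where 2.91% of all detected genes were. Hspe1 and Hspd1 are also counted among the chaperonins, so these groups overlap. Dnajc11 was above background in neither sample. Mitochondrial partners outside the naming rule were mixed. The mitochondrial Hsp90 gene Trap1 was at 0.16 and the protease subunit gene Clpx at 0.11, whereas the nucleotide exchange factor genes Grpel1 and Grpel2 were at -0.07 and 0.08 and Clpp at -0.04. The 39 detected members of the cytosol, the nucleus or no assigned compartment had a median of 0.03, with 21 above 0.

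BAG proteins bind Hsp70 and release its client, and no BAG gene reached 1.2-fold. Bag1, an anti-apoptotic member, gave 7374 in the control and 7700 in the knockout (log2 ratio 0.06). Bag3, the stress-inducible member that directs proteins to autophagy, gave 2450 and 2251 (log2 ratio -0.12). Bag4 gave 843 and 891 (log2 ratio 0.08), Bag6 663 and 704 (log2 ratio 0.09) and Bag5 546 and 518 (log2 ratio -0.07). Bag2 was above background in neither sample. Of the other chaperone-binding proteins, Hspbp1, a nucleotide exchange factor of Hsp70, gave 413 and 397 (log2 ratio -0.05), Hspbap1, a binding partner of Hspb1, gave 253 and 238 (log2 ratio -0.09), and Tmem132a gave 757 and 787 on its brighter probe (log2 ratio 0.06, and 0.19 on the other).

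**Figure D3:**
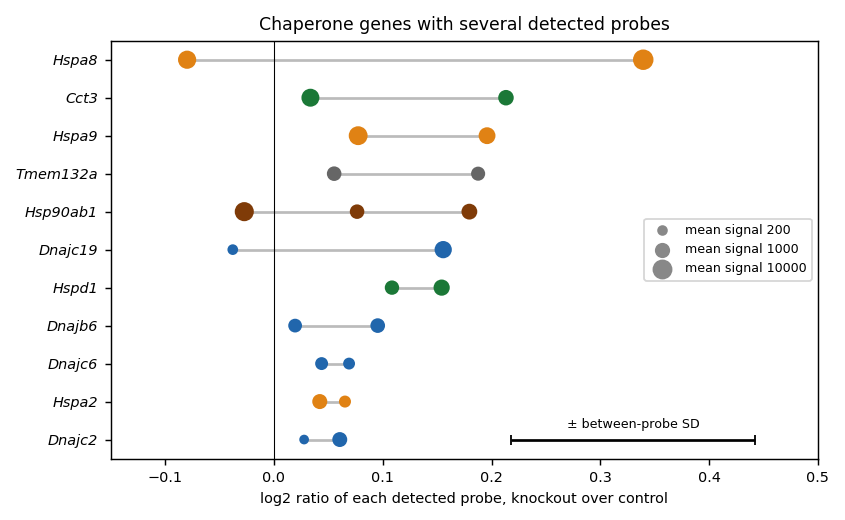
Log2 ratio of every detected probe of the 11 chaperone genes with more than 1 detected probe, with point area growing with the mean signal and a bar for the between-probe SD of 0.11. The probes of Hspa8 lie at -0.08 and 0.34, farther apart than those of any other of these genes.

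Chaperone genes outside the naming rule, where detected, had log2 ratios or bounds from -0.20 (Fkbp8) to 0.20 (Fkbp5). Of 51 on the array 43 were detected, 19 of them above 0, with a median log2 ratio of -0.02, and 0 reached 1.2-fold in either direction. The Hsp90 partners Stip1, Fkbp4 and Ptges3 were at 0.00, -0.02 and 0.12, the cytosolic small heat shock protein gene Cryab at 0.03, the collagen chaperone gene Serpinh1 at 0.19, the lectin chaperone gene Calr at -0.04 and the disulphide isomerase genes P4hb and Pdia3 at -0.07 and -0.03. Hyou1, an ER Hsp110 detected in the knockout alone, was at least 1.14-fold higher.

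Tissue handling can induce heat shock genes together with immediate early genes, so the latter are given beside them. Of 15 immediate early genes 12 were detected, 5 above 0, with a median log2 ratio of -0.03, 1 at least 1.2-fold higher and 2 lower. Fos was at 0.49 (830 in the control and 1164 in the knockout), Junb at -0.33 (1421 and 1132), Jund at -0.27 and Egr1 at 0.15. Among chaperone genes known to be induced by heat shock, Hspa1a, Dnajb1, Hsph1 and Bag3 lay between -0.12 and 0.08, Hspb1 at -0.37, Hspd1 at 0.15 and Hspe1 at 0.47. The part of handling in any of these values was not tested.

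The direction of the differences past 1.2-fold was the same under each of the 7 other ways of processing tried. Over these the log2 ratio ranged from 0.47 to 0.70 for Hspe1, from 0.37 to 0.45 for Hsp90b1, from 0.32 to 0.37 for Cct4, from 0.13 to 0.34 for Hspa8 and from -0.38 to -0.31 for Hspb1. Hspe1, Hsp90b1, Cct4 and Hspb1 are read by 1 probe each, detected in both samples. Only the settings that normalized the arrays anew could move their ratios, and those of detection, probe mean and floor could not. The 7 mitochondrial members were above 0 under each of the 7 ways. So were the chaperonin members, except that Cct2 lay below 0 when a looser detection threshold let it in and 7 of 8 were then above 0.

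**Figure D4:**
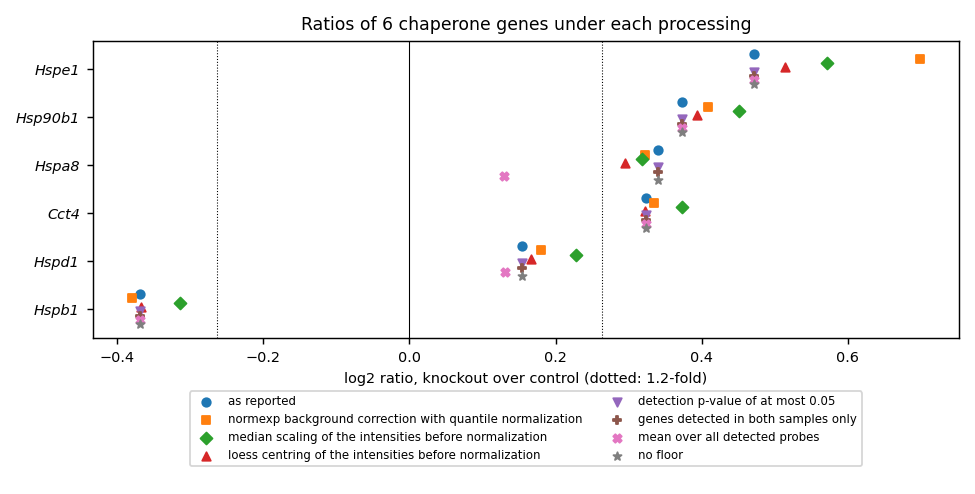
Log2 ratio of 6 chaperone genes (rows) as reported and under 7 other ways of processing (symbols), with 1.2-fold as dotted lines. Each gene keeps its side of 0, Hspe1 reaches 0.70 with normexp background correction and quantile normalization together, and Hspa8 falls inside 1.2-fold with the mean over its probes.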

How the data were processed

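The authors deposited a linear intensity and a detection p-value per bead-array probe, before and after normalization. The submitters' processing notes name GenomeStudio 2011.1, and how the arrays were normalized is not given in these sources. Both normalized arrays had a median of 148.9, with background left in, so ratios of dim probes are drawn towards 1. The protocol text names a VDR knockout once, and the genotype labels (CaSR) were followed.

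Probes counted as detected at a p-value of 0.01 or below. Normalized intensity was raised to the dimmest detected signal of its array (164.9 in the control, 165.9 in the knockout) and log2 transformed (Python 3.11.15). A gene needed a detected probe in at least 1 sample and was read by its brightest probe, and a ratio with 1 undetected side is a bound. Symbols were updated for 24358 of 25697 probes through RefSeq (GRCm38.p6), also the source of promoters. No significance test between the groups was possible, and the number of arrays limits precision. Members and lists were chosen with earlier results of these data known. Members named with values were those at least 1.2-fold apart, the brightest of each family and those with discordant probes, and the others are named for completeness. Calling by fold was tested on simulated data with planted folds, and the outcome is not reported here. A gene within 1.2-fold is not thereby shown to be level between the pools. Alternatives were limma 3.58.1 (normexp, offset 16, quantile), median scaling, loess (span 0.3, statsmodels 0.14.6), a detection threshold of 0.05, detection in both samples, the mean of all probes and no floor.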

Additional observations from a re-analysis of the deposited data

How the results depend on the processing

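With normexp background correction and quantile normalization, and likewise with loess centring, 2 members were at least 1.2-fold lower in place of 1. The second was Dnajb3, a dim gene, at log2 ratios of -0.65 and -0.27. The first of these settings, which changes background correction and normalization together, also raised the count of all genes past 1.2-fold to 901 higher and 872 lower (249 and 253 as reported) and past 1.5-fold to 116 and 111 (16 and 20), and the count of higher members to 5 through Dnajc12 at 0.34. Under that first setting Hspe1, at 0.70, and Dnajb3, at -0.65, were past 1.5-fold. Median scaling gave 562 genes higher and 174 lower, and 65.0% of all genes were then above 0. The cause of these shifts was not tested. The count of higher members was 3 with the mean over all probes, which put Hspa8 within 1.2-fold. Of 353 member ratios recomputed, 347 moved by less than the between-probe SD, and 0 of those past 1.2-fold changed sign. The 71 recomputed medians moved by less than that SD too, although those of the ER members and of the small heat shock proteins, both near 0, crossed 0. Many of the recomputed ratios could not move. For a gene with 1 probe, detected in both samples, the settings of detection, probe mean and floor return the same ratio. The medians rest on these ratios, so both counts overstate how far the settings tried the values. Genes near the detection floor hold little signal over background, which limits their ratios. No paired analysis was possible because each group was 1 sample.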

Other observations

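Several chaperone genes that are known to be active in most cells were read at background level by this array in both pools. Hspa5 gave 139 in the control and 147 in the knockout, with detection p-values of 0.209 and 0.0677 as deposited. The probes of Hsp90aa1 gave 127 and 136 in the control and 140 and 135 in the knockout. Cct5 gave 130 in the control and 150 in the knockout, Cct7 gave 140 and 152, and Cct2 gave 152 and 151. The probes of Dnaja1 gave 133 and 150 in the control and 143 and 124 in the knockout. The complex partners of the TRiC genes among them, Cct3, Cct4, Cct6a and Cct8, were detected in both pools. For the genes at background level no direction is read and no ratio is given.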
